A study of Mus musculus with 61 samples.

Results

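Cybb, Lox, Fgf1, Cldn10 and Gm14085 were 5 of the 24421 genes counted in 61 mouse RNA-seq libraries. They were selected on their log2 fold changes, as the strongest falls in CD4+ T cells without Stat5a and Stat5b after a retrovirus had returned STAT5B or STAT5B N642H, an activating mutant found in T cell leukemia, each set against the empty retroviral vector. Because these 2 contrasts chose them, their falls there are described below without a test. All 5 passed the minimum of 10 reads in the null CD4+ cells, where 20113 genes did.

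The CD4+ T cells came from C57BL/6 mice aged 2 months. Naive cells from spleens and lymph nodes were activated through the T cell receptor, transduced, cultured with IL-2 and sorted for sequencing. Null cells came from mice with floxed Stat5a/b deleted by a Cre under the Cd4 promoter, and WT cells were handled alike. Each background received the empty vector, STAT5B, N642H, Y665F (a tyrosine changed to phenylalanine) or Y665H (the same tyrosine to histidine), with 3 libraries per vector, 30 in all. The genotype entry names Stat5a/b flox/flox for all 30 libraries, those titled WT included, so the background rests on titles and methods. The other samples came from mice with the same strain and age entries and Y665H or Y665F knocked into their own Stat5b gene, a change made in C57BL/6N embryos according to the methods, with zygosity not given in the labels. Splenic T cells of WT, Y665H and Y665F mice were cultured with IL-2 and IL-7 (4 libraries each) and those of Y665F mice also without interleukin (3 libraries). Spleens were sequenced from 4 WT, 5 Y665H and 7 Y665F mice. The study calls its CD4+ replicates independent biological ones and its naive cells a pool of lymph nodes and spleens. Which animals went into which culture is not stated, so p-values for the CD4+ cells measure the spread between these libraries.

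STAT5A and STAT5B are transcription factors that cytokines such as IL-2 and IL-7 switch on in T cells. They raise genes such as Cish, Socs2 and Il2ra, and they also lower genes, Bcl6 being the textbook example in CD4+ T cells. The 5 genes have different roles. Cybb encodes gp91phox, the catalytic subunit of the phagocyte NADPH oxidase. Lox encodes lysyl oxidase, which cross-links collagen and elastin outside the cell. Fgf1 encodes acidic fibroblast growth factor, a secreted ligand of the FGF receptors. Cldn10 encodes a claudin, a protein of epithelial tight junctions that forms paracellular ion channels. Gm14085 is listed by RefSeq as Slc28a2b, a near copy of Slc28a2, which encodes a sodium-coupled transporter of nucleosides.

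The deposited counts were turned into CPM, the reads of a gene relative to library size, with edgeR's TMM factors, the 30 CD4+ libraries together and the splenic T cells and spleens each on their own, so levels set across these materials have no test. Reads on genes numbered 18825994 to 49850689 per CD4+ library, 2017012 to 27394249 per splenic T library and 24203179 to 43330536 per spleen library. Stat5b, the gene deleted and returned, was 2.78, 5.30 and 9.49 CPM in the null libraries with empty vector, 186 to 365 CPM in the 12 null libraries with a construct, and 187 to 564 CPM in the 15 WT libraries, in accord with the titles. The marker lists matched the labelled cells. Summed T cell markers were 2590 to 4210 CPM and Cd4 633 to 1180 CPM in the 30 CD4+ libraries, against 2.99 to 10.8 CPM for 10 macrophage and monocyte genes. The splenic T libraries were less uniform, with macrophage and monocyte sums of 44.3 to 418 CPM and B cell sums of 14.5 to 713 CPM. Stimulated Y665F replicate 3 stood apart there, with 2851451 reads, the highest B cell sum and the lowest T cell sum (770 CPM). Among spleens, Y665H replicate 1 stood apart from the other Y665H mice, with a neutrophil sum of 120 CPM against 373 to 1540 CPM. In bulk libraries such as these, fewer cells of a type and less RNA per cell cannot be told apart.

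The windows of 300 bases around the RefSeq starts of Cybb, Cldn10 and Gm14085 (250 bases before to 50 after, GRCm38.p6) are shown because these 3 genes had the largest falls with N642H among genes that averaged at least 1 CPM with no overlap between libraries, beside the window of Slc28a2, the neighbour and near copy of Gm14085. They were searched for TTCNNNGAA, the palindromic core to which STAT5 binds, which reads the same on both strands and is printed in capitals. Cybb lies on X, minus strand (window chrX:9469275-9469574, inside the longer GENCODE gene), Cldn10 on chromosome 14, plus strand (chr14:118787621-118787920 and chr14:118854700-118854999), Gm14085 on chromosome 2, plus strand (chr2:122484691-122484990) and Slc28a2 on chromosome 2, plus strand (chr2:122426185-122426484). The windows of the other two genes are not shown here.
Cybb: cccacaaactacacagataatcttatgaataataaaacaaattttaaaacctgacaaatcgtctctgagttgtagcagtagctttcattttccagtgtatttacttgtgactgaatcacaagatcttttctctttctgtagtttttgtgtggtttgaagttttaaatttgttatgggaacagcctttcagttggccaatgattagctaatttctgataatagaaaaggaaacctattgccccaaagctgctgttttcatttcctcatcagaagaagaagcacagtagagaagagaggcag
Cldn10, upstream start: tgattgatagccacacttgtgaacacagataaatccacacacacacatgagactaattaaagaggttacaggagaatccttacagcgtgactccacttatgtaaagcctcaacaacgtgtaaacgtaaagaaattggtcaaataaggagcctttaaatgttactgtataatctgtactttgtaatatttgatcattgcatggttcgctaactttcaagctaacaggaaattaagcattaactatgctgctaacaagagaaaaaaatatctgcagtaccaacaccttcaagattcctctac
Cldn10, downstream start: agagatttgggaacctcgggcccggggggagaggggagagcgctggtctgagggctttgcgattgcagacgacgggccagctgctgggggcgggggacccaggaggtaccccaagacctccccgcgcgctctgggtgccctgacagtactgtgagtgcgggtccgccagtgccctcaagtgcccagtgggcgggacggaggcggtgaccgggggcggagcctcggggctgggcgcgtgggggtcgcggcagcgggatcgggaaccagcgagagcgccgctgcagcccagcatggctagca
Gm14085: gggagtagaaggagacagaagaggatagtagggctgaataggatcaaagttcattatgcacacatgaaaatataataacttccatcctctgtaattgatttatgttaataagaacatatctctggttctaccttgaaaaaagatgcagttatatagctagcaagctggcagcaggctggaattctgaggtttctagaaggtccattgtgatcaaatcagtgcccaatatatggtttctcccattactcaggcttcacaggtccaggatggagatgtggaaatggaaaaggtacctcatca
Slc28a2: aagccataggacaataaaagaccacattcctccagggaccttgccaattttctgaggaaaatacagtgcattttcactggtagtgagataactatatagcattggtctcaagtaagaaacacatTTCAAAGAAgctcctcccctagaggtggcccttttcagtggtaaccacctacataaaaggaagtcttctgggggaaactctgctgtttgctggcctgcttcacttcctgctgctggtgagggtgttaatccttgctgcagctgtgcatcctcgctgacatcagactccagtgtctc

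The core was found 0 times in the windows of Cybb, Cldn10 and Gm14085 and once in that of Slc28a2, where it starts 126 bases before the gene's start. Of 32851 such windows in the RefSeq table, 2726 (8.30%) held it. The search covered only these letters in these windows. The downstream Cldn10 window was 72.0% G and C with 27 CG dinucleotides, against 36.0% and 4 in the upstream one, 35.3% and 1 in Cybb and 40.0% and 0 in Gm14085.

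In null cells, the falls that chose the genes were as follows, as a description. Among the 24 genes called lower with STAT5B over the empty vector (0.119% of 20113), where a call needed a log2 fold change of more than 1 and an adjusted p below 0.05, the largest falls were Lox (-2.20), Cybb (-1.90) and Fgf1 (-1.60). Just outside were Hgf at -1.59 and Rph3a at -1.57, and Cldn10 stood sixth at -1.52. Among the 261 genes called lower with N642H (1.30%), the largest falls at a mean of at least 1 CPM with no overlap between libraries were Cybb (-2.74), Gm14085 (-2.68) and Cldn10 (-2.66). Rph3a at -2.58 and Bcl6 at -2.39 stood just outside. Lox had a larger value, -3.47, at a mean of 0.922 CPM, and without N642H replicate 1 it was -4.45. Fgf1 was -1.91 with N642H, and Gm14085 was -1.58 with STAT5B, where its libraries overlapped those of the empty vector.

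Cybb, the oxidase subunit, was 5.55, 4.96 and 4.97 CPM with the empty vector in null cells. It was 1.05, 0.848 and 2.38 CPM with STAT5B, 0.791, 0.525 and 1.14 CPM with N642H, and 0.607, 0.857 and 1.51 CPM with Y665F. With Y665H it was 3.38, 2.02 and 7.13 CPM, a range that includes the empty-vector values. The means of the 3 active constructs were 27.6% ± 16.1 (STAT5B), 15.8% ± 5.95 (N642H) and 19.2% ± 9.05 (Y665F) of the empty-vector mean (SD, n = 3), and those 3 groups overlapped one another.

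**Figure D1:**
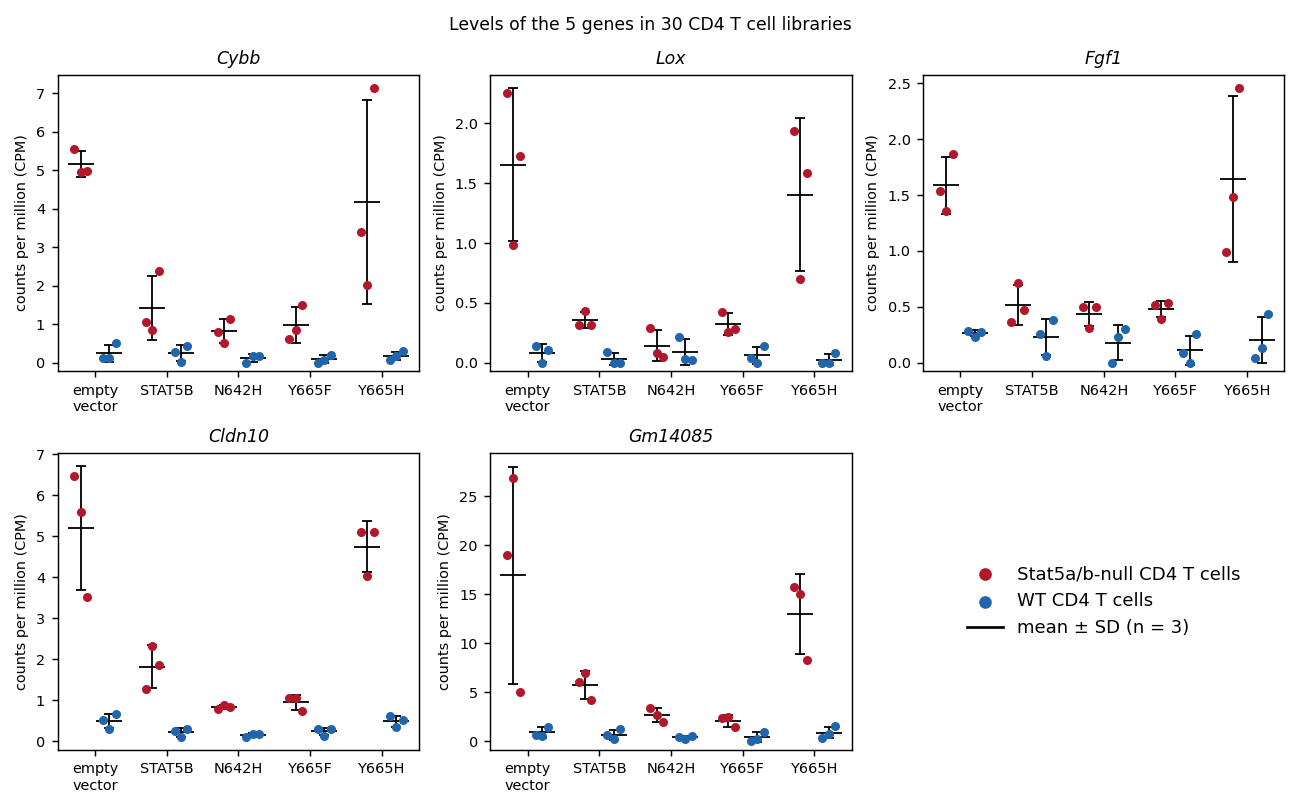
Levels of Cybb, Lox, Fgf1, Cldn10 and Gm14085 in CPM (vertical axes, from 0) by vector (horizontal axes) in null (red) and WT (blue) CD4+ T cells. Points are libraries and bars the mean ± SD of 3; in null cells the empty-vector and Y665H points lie high (Cybb 2.02 to 7.13 CPM), those of the other vectors lower, and the WT points stay at or below 1.5 CPM for all 5 genes.

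Lox was 2.25, 0.985 and 1.73 CPM with the empty vector. It was 0.315, 0.435 and 0.317 CPM with STAT5B, 0.290, 0.0840 and 0.0494 CPM with N642H, and 0.425, 0.255 and 0.286 CPM with Y665F, all below every empty-vector library. With Y665H it was 1.93, 0.696 and 1.59 CPM. These are few reads, 1 to 20 per library with the active constructs against 22 to 84 with the empty vector or Y665H. Lox spans 52516067 to 52529867 of chromosome 18 (GRCm38, minus strand) in the GENCODE annotation.

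Fgf1, the growth factor, was 1.54, 1.36 and 1.86 CPM with the empty vector and 0.990, 1.49 and 2.46 CPM with Y665H. It was 0.368, 0.717 and 0.476 CPM with STAT5B, 0.501, 0.315 and 0.494 CPM with N642H, and 0.516, 0.394 and 0.531 CPM with Y665F. The 9 libraries of the active constructs held 10 to 33 reads each and lay below the 6 others. Their means were 27.5% to 32.8% of the empty-vector mean, the least deep fall of the 5 genes with N642H and with Y665F. Fgf1 lies on the same chromosome as Lox, at 38838673 to 38929472 (minus strand).

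Cldn10, the claudin, was 6.46, 5.59 and 3.52 CPM with the empty vector and 5.11, 4.02 and 5.09 CPM with Y665H. It was 1.26, 2.33 and 1.86 CPM with STAT5B. It was 0.791, 0.882 and 0.840 CPM with N642H and 1.06, 1.04 and 0.735 CPM with Y665F, so that both of these groups lay wholly below STAT5B. The means were 35.0% ± 10.3 (STAT5B), 16.1% ± 0.885 (N642H), 18.2% ± 3.53 (Y665F) and 91.3% ± 12.0 (Y665H) of the empty-vector mean (SD, n = 3). The gene spans 118787908 to 118875489 of chromosome 14 (plus strand).

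Gm14085, the transporter-like gene, had the widest spread of the 5 among the empty-vector libraries, with an SD of 65.4% of its mean. It was 19.1, 26.9 and 4.97 CPM with the empty vector, 15.7, 15.1 and 8.32 CPM with Y665H, and 5.99, 6.98 and 4.16 CPM with STAT5B. It was 3.43, 2.65 and 1.93 CPM with N642H and 2.40, 2.48 and 1.39 CPM with Y665F. Replicate 3 was the lowest library in 5 of 5 null groups, and in WT cells replicate 3 was the highest in 5 of 5. Cybb, in contrast, had its highest null library in replicate 3 in 4 of 5 groups.

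The comparison that took no part in the choice was Y665F against Y665H in null cells, constructs that differ in the residue put in place of the same tyrosine. Its fit estimated the spread from all 15 null libraries, those of the choice included. The p-values are therefore not wholly separate from the choice. All 5 genes were called lower with Y665F (edgeR's quasi-likelihood test, Benjamini-Hochberg adjustment over 20113 genes), against 156 genes called lower in all, a background of 0.776%. The median log2 fold change of the 5 was -2.16, against -0.114 over all genes tested. Cldn10 fell by 2.35 ± 0.28 on the log2 scale (SE, adjusted p = 8.94e-05) and Gm14085 by 2.66 ± 0.45 (adjusted p = 0.00149). Cybb fell by 2.15 ± 0.46 (adjusted p = 0.00778), Fgf1 by 1.82 ± 0.38 (adjusted p = 0.0069) and Lox by 2.16 ± 0.50 (adjusted p = 0.0116). For each gene the 3 Y665F libraries lay below the 3 Y665H libraries, as did those of 12.8% of all genes tested. Without Y665F replicate 2 the calls of Lox (-1.98, adjusted p = 0.0718) and Fgf1 (-1.67, adjusted p = 0.0517) were lost, leaving 3 of 5. Without Y665H replicate 3, its library with the most Cybb, the fall of Cybb was -1.54 and still called (adjusted p = 0.0456).

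Within a replicate number, Gm14085 with Y665F was 15.3%, 16.5% and 16.7% of its level with Y665H, although the levels themselves differed between the numbers. Cldn10 was 20.8%, 26.0% and 14.4%. Cybb was 17.9%, 42.3% and 21.2%, Lox 22.0%, 36.6% and 18.0%, and Fgf1 52.1%, 26.5% and 21.6%. The ratio was thus nearly the same in all 3 numbers for Gm14085 and spread most for Fgf1.

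Markers of most other cells were low in these null libraries, and several sums were lower with Y665F. The macrophage and monocyte sum was 3.85 to 6.90 CPM with Y665F and 5.59 to 9.49 CPM with Y665H, and 1 of its 10 genes, Itgam, was called lower (-1.15 ± 0.30, adjusted p = 0.0247). Itgam was 0.776 to 0.904 CPM with Y665F and 1.65 to 2.16 CPM with Y665H, and Cd68 1.7 to 2.8 and 2.99 to 3.98 CPM. The ranges of the other genes of this list overlapped. Among them Csf1r, the defining receptor of macrophages, was at 0 to 0.569 CPM in all 15 null libraries, and Cybb reached 7.13 CPM. The sum of fibroblast and stroma genes was 2.37 to 4.37 CPM with Y665F and 3.25 to 6.30 CPM with Y665H, and the B cell sum 1.72 to 3.06 and 2.90 to 6.38 CPM. The CD8 sum was 8.18 to 16.2 CPM with Y665F and 13.8 to 20.5 CPM with Y665H (median log2 fold change of its 2 genes -1.14). The dendritic cell sum was 3.27 to 4.98 and 2.67 to 3.73 CPM, higher with Y665F in its range although the median log2 fold change of its 7 genes was -0.81. The sum of 7 endothelial and epithelial genes was the highest of the lists of other cells, at 76.3 to 108 CPM with Y665F and 128 to 178 CPM with Y665H, groups that did not overlap. Of that sum Pecam1, an adhesion molecule of endothelium and leukocytes, made up 72.4 to 102 and 120 to 172 CPM. The epithelial genes Epcam (3.35 to 6.22 and 3.92 to 6.17 CPM), Krt18 (0.0408 to 0.334 and 0.285 to 0.928 CPM) and Cdh1 (0.245 to 0.44 and 0.0691 to 0.509 CPM) were at lower levels, and Krt8 was at 0 in the 3 Y665F libraries. In these lists 0 genes other than Itgam were called by edgeR. The T cell sum was 2990 to 3480 CPM with Y665F and 3760 to 4080 CPM with Y665H. The part of these cells in the falls was not tested.

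Of the 13 other NADPH oxidase genes tested in Y665F against Y665H, 0 were called in either direction: Cyba, the partner of Cybb in the membrane, was 263 ± 45.8 against 257 ± 9.06 CPM (SD, n = 3) and Ncf1, a cytosolic subunit, 79.5 ± 30.9 against 52.9 ± 15.5 CPM. The median log2 fold change of the 13 was -0.43, against -0.114 over all genes. Rac2, the GTPase of the oxidase in blood cells, passed the adjusted p but not the fold minimum, at 654 ± 37.6 against 883 ± 105 CPM (-0.43 ± 0.12, edgeR adjusted p = 0.0255). Noxa1 (-1.50) and Duox1 (-1.58) had larger values below 0.5 CPM, with edgeR adjusted p of 0.184 and 0.268. Of 8 other lysyl oxidase and collagen cross-linking genes, 23 other FGF ligands and receptors and 17 other claudins tested, 0 were called by edgeR. Their median log2 fold changes were -0.05, -0.37 and 0.18. Of 7 other nucleoside transporters 1 was called, Slc29a1, an equilibrative transporter, at 402 ± 49.4 against 847 ± 12.5 CPM (-1.08 ± 0.14, adjusted p = 0.000236).

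Of 7 genes that STAT5 is known to raise, 6 were called higher with Y665F than with Y665H, beside 206 of 20113 genes in all. The 6 included Socs2, a cytokine signalling inhibitor, by 3.64 ± 0.31 (edgeR adjusted p = 4.53e-06), and Il2ra, the IL-2 receptor alpha chain, by 2.26 ± 0.22 (adjusted p = 1.03e-05). Of 8 genes known to fall with STAT5, 2 were called lower. Bcl6, a transcriptional repressor, fell by 1.52 ± 0.21 (adjusted p = 0.000385) and Cxcr5, a chemokine receptor of follicular helper T cells, by 1.15 ± 0.22 (adjusted p = 0.00307). The 5 genes thus had larger log2 falls than either of these 2 in this comparison, a statement of size without a test of the difference. The choice of the 5 by the largest falls with STAT5B or N642H favoured this order, as Bcl6 stood just outside it with N642H. Both gene lists were chosen with earlier results of these data known, so their counts are no independent check.

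**Figure D2:**
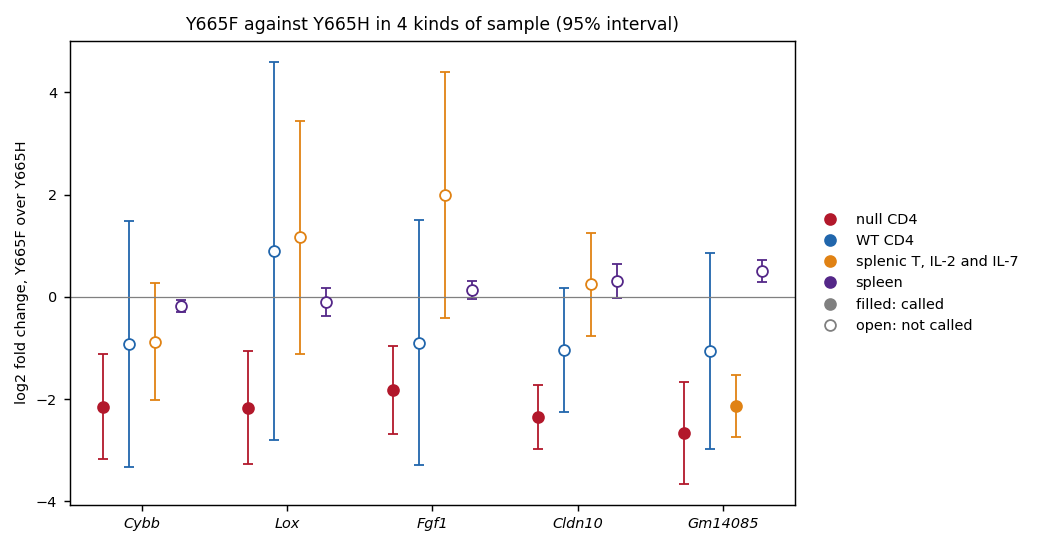
Log2 fold change of Y665F over Y665H (vertical axis) for each gene in null CD4+ cells, in WT CD4+ cells, in splenic T cells with IL-2 and IL-7, and in spleens, with 95% intervals. Filled points were called; in null cells all 5 lie between -2.66 and -1.82, and outside them only Gm14085 in splenic T cells (-2.13) was called.

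In WT CD4+ T cells the 5 genes were close to the limit of detection with every vector. The medians over the 15 WT libraries were 0.167 CPM for Cybb, 0.0292 for Lox, 0.235 for Fgf1, 0.291 for Cldn10 and 0.544 for Gm14085. Lox had at most 5 reads in a WT library and was at 0 in 6 of 15, where the limit that a count of 0 allows is 3 reads, 0.0602 to 0.159 CPM at these depths. Cldn10 held 2 to 31 reads and Gm14085 0 to 76. With the empty vector, Cybb was 0.115, 0.117 and 0.505 CPM in WT against 4.96 to 5.55 CPM in null cells, and Gm14085 0.630, 0.516 and 1.47 against 4.97 to 26.9 CPM. Empty-vector WT means were 4.76% (Cybb), 5% (Lox), 16.7% (Fgf1), 9.45% (Cldn10) and 5.15% (Gm14085) of the null means. These values share the empty-vector libraries of the choice and have no test.

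The same difference was tested in vectors that took no part in the choice, a comparison added after the values were seen. Its fit estimated the spread from all 30 CD4+ libraries, those of the choice included. With Y665H, all 5 genes were called higher in null than in WT cells (467 of 21975 genes were called higher, 2.13%). Cldn10 was 4.74 ± 0.63 against 0.483 ± 0.136 CPM (SD, n = 3), a log2 difference of 3.29 ± 0.36 (SE, edgeR adjusted p = 8.68e-07). Cybb was 4.18 ± 2.64 against 0.181 ± 0.109 CPM (4.39 ± 0.71, adjusted p = 0.000147) and Gm14085 13.0 ± 4.09 against 0.855 ± 0.587 CPM (3.85 ± 0.64, adjusted p = 0.00022). Fgf1 was 1.64 ± 0.745 against 0.203 ± 0.207 CPM (2.86 ± 0.69, adjusted p = 0.00677). Lox was 1.41 ± 0.639 CPM against 4 reads in all in the 3 WT libraries (adjusted p = 0.00101), so that its fitted change depends on the prior count. Without WT Y665H replicate 3 the log2 values were 4.14 for Fgf1, 4.61 for Gm14085 and 5.01 for Cybb, all still called.

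With Y665F, the gap was smaller in value. Cldn10 (0.947 ± 0.183 against 0.234 ± 0.0906 CPM, adjusted p = 0.00301) and Cybb (0.992 ± 0.467 against 0.0917 ± 0.0994 CPM, adjusted p = 0.0168) were called higher in null cells, 2 of 5 beside a background of 1.23%. Gm14085 (2.09 ± 0.607 against 0.397 ± 0.5 CPM) had an adjusted p of 0.0556, Fgf1 of 0.144 and Lox of 0.204 by edgeR. Every null library lay above every WT library for all 5 genes, a description only, as the share of all genes that did so was not counted. The call of Cybb was lost without null Y665F replicate 3 (adjusted p = 0.113), without WT Y665F replicate 1 (adjusted p = 0.0872) or without WT Y665F replicate 2 (adjusted p = 0.117), and that of Cldn10 without the last (adjusted p = 0.0501). Without WT Y665F replicate 3, Fgf1 (adjusted p = 0.0226) and Gm14085 (adjusted p = 0.00707) were called too, and Cybb was 4.31 in place of 3.25 on the log2 scale. With the replicate number as a block, Gm14085 (adjusted p = 0.0326) and Fgf1 (adjusted p = 0.04) were called as well, 4 of 5 in all by edgeR. The numbers pair libraries within each background, and a pairing of null with WT libraries was not shown. DESeq2 also called 4 of 5, and edgeR with these groups fitted alone 1. The background of 1.23% belongs to the main edgeR fit. The share of all genes called under the other settings is not given here, so their counts cannot be set against it.

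Within the WT cells, 0 of the 5 genes were called by edgeR or by DESeq2 in any comparison of vectors. The backgrounds over 20509 genes were 0.00975% for STAT5B, 0.985% for N642H, 0.707% for Y665F and 0.00488% for Y665H, each against the empty vector, and 0.18% for Y665F against Y665H. Before adjustment 1 of 5 genes passed 0.05 in each of 2 comparisons, Cldn10 with STAT5B (-1.14 ± 0.53, edgeR adjusted p = 1) and with N642H (-1.58 ± 0.56, edgeR adjusted p = 0.24), and 0 in the 3 others. Of all genes, 2.71% and 10.6% did so in these 2 comparisons. It was 0.515, 0.305 and 0.652 CPM with the empty vector, 0.109, 0.175 and 0.181 CPM with N642H, and 0.291, 0.129 and 0.282 CPM with Y665F. The N642H and Y665F libraries lay below the empty-vector libraries, on 2 to 10 reads each.

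The depth limits what WT cells can show for these 5 genes. The 95% intervals of Y665F against Y665H there ran from -3.33 to 1.48 for Cybb and from -2.99 to 0.85 for Gm14085 on the log2 scale, wide enough to hold the null values. The difference between backgrounds in this contrast, tested as an interaction after the values were seen, was called for 0 of 5 genes by edgeR and by DESeq2 (background 0.164%). Cldn10, at -1.24 ± 0.54 (edgeR adjusted p = 0.456), was the 1 gene of 5 below 0.05 before adjustment, as were 9.38% of all genes. A difference between null and WT cells in the fall with Y665F was therefore not shown for the 5 genes. In the same interaction edgeR called 3 of the 7 listed genes that STAT5 raises, Socs2, Cish and Il2ra. It also called 1 of the 8 known to fall, Bcl6. Within WT cells, 0 of these 7 and 0 of these 8 were called in Y665F against Y665H. Their median log2 fold changes there were 0.03 and -0.50.

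Over the 30 CD4+ libraries the 5 genes followed one another, with Pearson correlations of log2 CPM of 0.786 to 0.915 over the 10 pairs. This is a description over libraries that include those of the choice and share backgrounds and vectors. Among the 11459 genes that averaged 1 CPM or more, the closest pattern to Cybb was that of Tbc1d4, a Rab GTPase-activating protein (r = 0.958), then Vav3 and Efnb2. The closest to Cldn10 was Tcp11l2 (0.973) and to Gm14085 Snn (0.964), with Snn also second for Cldn10 (0.949). Fgf1 was closest to Cybb itself (0.915), and Lox to Decr1 (0.897), a mitochondrial enzyme of fatty acid oxidation. Tcp11l2 was 28.7 CPM with the empty vector and 24.2 with Y665H in null cells, 12.7, 9.75 and 9.16 with STAT5B, N642H and Y665F, and 6.63 in WT cells with the empty vector.

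Of the 14 genes named this way, 6 passed both thresholds in Y665F against Y665H in null cells, all lower: Cybb, Rbpms, Dpt, Tcp11l2, Snn and Dzip1. Tcp11l2 fell by 1.45 ± 0.18 (edgeR adjusted p = 0.000169) and Snn by 1.43 ± 0.18 (adjusted p = 0.000188). Their choice by likeness over all 30 libraries, those of Y665F and Y665H included, makes this no independent support.

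Gm14085 needs a caution about its reads. It lies on chromosome 2 at 122484941 to 122528040, 23.8 kb downstream of Slc28a2 (122426477 to 122461137), both on the plus strand. Their transcripts are 96.1% identical over 3737 aligned columns, with a longest identical run of 295 bases, and 21.5% of the 100-base windows of Gm14085 occur unchanged in Slc28a2. Reads from such stretches cannot be assigned, so the split of counts between the genes is uncertain. The share of Gm14085 in the reads of the pair was 10.1% ± 1.92 with Y665H and 3.4% ± 0.988 with Y665F in null cells (SD, n = 3), 11.9% ± 5.54 with the empty vector, and at most 2.38% in any WT CD4+ library. Slc28a2 itself was 97.3 to 125.3 CPM with Y665H and 57.5 to 60.4 CPM with Y665F, a log2 change of -0.98 ± 0.16 (edgeR adjusted p = 0.00125), just short of the fold minimum.

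**Figure D3:**
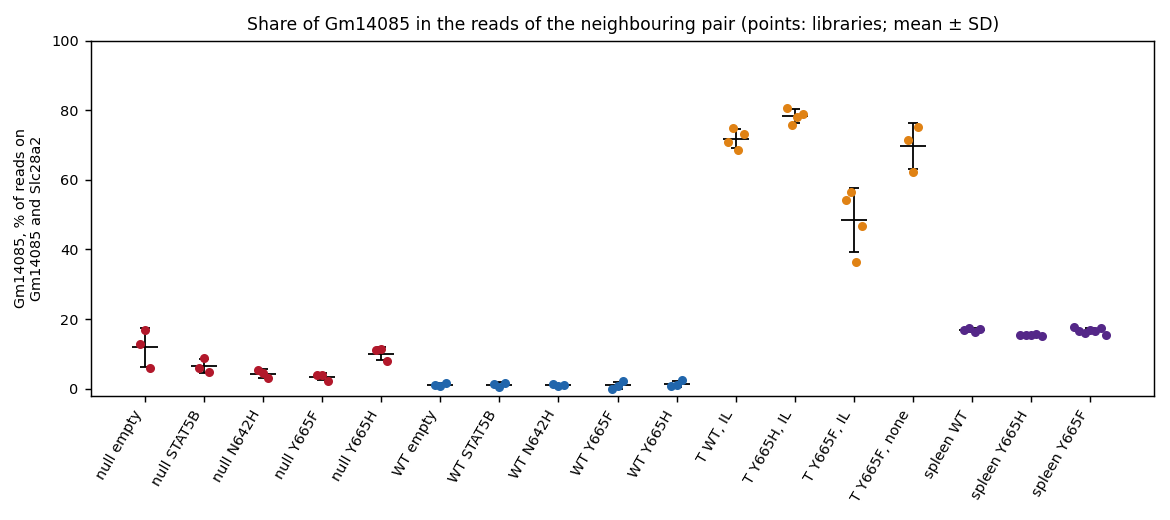
Share of Gm14085 in the reads counted on Gm14085 and Slc28a2 (vertical axis, percent) in each group of libraries (horizontal axis). Points are libraries and bars the mean ± SD; the share is at most 16.9% in CD4+ cells, 15.2% to 17.8% in spleens and 36.4% to 80.8% in splenic T cells, where stimulated Y665F cells are lowest.

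In splenic T cells from the knock-in mice, Gm14085 was the 1 gene of the 5 called. It was 625, 717, 486 and 570 CPM in stimulated WT cells and 767, 691, 829 and 751 CPM in stimulated Y665H cells. In stimulated Y665F cells it was 209, 266, 88.4 and 127 CPM, below every other library of this material, and in Y665F cells without interleukin 389, 349 and 700 CPM. Y665F was lower than WT by 1.79 ± 0.27 on the log2 scale (SE, edgeR adjusted p = 0.00202; 1.53% of 22313 genes were called) and lower than Y665H by 2.13 ± 0.28 (adjusted p = 6.62e-05; background 4.78%). Stimulated Y665F cells were also lower than Y665F cells without interleukin, by 1.47 ± 0.29 (adjusted p = 0.00249; background 2.97%). Without unstimulated replicate 3 that last call was lost (-1.09, adjusted p = 0.0566). Y665H did not pass the test against WT (0.34 ± 0.27, 95% interval -0.24 to 0.93, adjusted p = 0.7).

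The fall did not rest on the library that stood apart. Without stimulated Y665F replicate 3, Gm14085 was -1.58 against WT and -1.92 against Y665H. The T cell sum was 770 to 2150 CPM in stimulated Y665F cells, 1910 to 2190 in Y665H and 2030 to 2610 in WT. In stimulated Y665F replicates 1 to 4 the T cell sums were 2150, 1880, 770 and 1180 CPM, beside 209, 266, 88.4 and 127 CPM of Gm14085. In WT replicates 1 to 4 they were 2030, 2520, 2610 and 2330 CPM, beside 625, 717, 486 and 570 CPM. This sum does not separate kinds of T cells. Other cells also differed: the neutrophil sum was 69 to 295 CPM in stimulated Y665F cells and 6.32 to 13.4 CPM in WT, with 4 of 7 genes called higher, and 5 of 8 B cell genes were called higher in Y665F than in Y665H. The part of the cell makeup in the size of the fall was not tested. Cd4 was lower in stimulated Y665F than WT cells (-1.16 ± 0.27, adjusted p = 0.029, edgeR).

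The neighbour moved less. Slc28a2 was 145 to 205 CPM in stimulated Y665F cells and 210.3 to 257 CPM in WT (-0.45 ± 0.17, edgeR adjusted p = 0.157). The share of Gm14085 in the pair was 48.5% ± 9.08 in stimulated Y665F cells, 71.9% ± 2.73 in WT and 78.4% ± 2.12 in Y665H (SD, n = 4), and 69.7% ± 6.66 in Y665F cells without interleukin (n = 3).

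**Figure D4:**
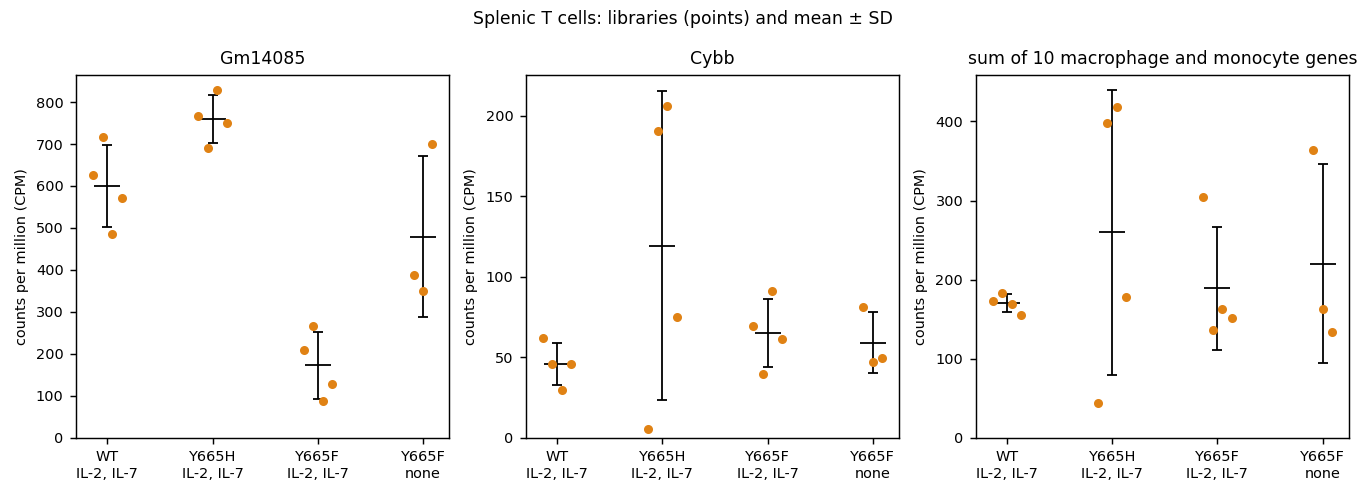
Splenic T cells: Gm14085, Cybb and the summed macrophage and monocyte genes in CPM (vertical axes, from 0) in WT, Y665H and Y665F cells with IL-2 and IL-7 and Y665F cells without interleukin. Points are libraries and bars the mean ± SD; Gm14085 in stimulated Y665F cells (88.4 to 266 CPM) lies below all other libraries, and the Y665H libraries spread for Cybb as for the macrophage sum.

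Cybb ranged widely within the stimulated Y665H cells. It was 61.7, 45.8, 29.4 and 45.8 CPM in stimulated WT cells, 5.14, 191, 206 and 74.9 CPM in Y665H cells and 69.5, 39.8, 90.9 and 61.2 CPM in Y665F cells. In the 4 Y665H libraries the macrophage and monocyte sum was 44.3, 398, 418 and 178 CPM. Csf1r was 2.86, 37.9, 43.1 and 16.1 CPM there, both in the same order as Cybb. In the other stimulated groups Csf1r did not follow that order. It was 13.1, 17.4, 14.5 and 14.2 CPM in WT and 17.3, 10.7, 6.40 and 16.3 CPM in Y665F cells. The highest Cybb of each of these 2 groups thus stood beside its lowest Csf1r. Cybb was not called in Y665H against WT (1.39 ± 0.52, adjusted p = 0.459, edgeR; background 0.0717%, 0 of 5 genes called by edgeR and by DESeq2, and 1 of 5, Cybb, below 0.05 before adjustment, as were 8.88% of all genes), nor in Y665F against Y665H (-0.88 ± 0.52, adjusted p = 0.335). Without Y665H replicate 1, the library with 5.14 CPM, it was called in both (1.77, adjusted p = 0.0151 and -1.26, adjusted p = 0.017). The part of myeloid cells in these values was not tested.

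Lox, Fgf1 and Cldn10 were at low counts in splenic T cells and none was called by edgeR. Cldn10 was 1.33, 1.91, 2.75 and 1.77 CPM in stimulated Y665F cells and 3.64, 3.59 and 6.17 CPM without interleukin, groups that did not overlap (-1.27 ± 0.43, adjusted p = 0.119, edgeR). With DESeq2 this one was called (-1.44, adjusted p = 0.00774). It rested on 9 to 92 reads per library. Lox had 0 to 15 reads per library and was at 0 in 4 of 15, and Fgf1 had 0 to 16 reads and was at 0 in 3, in libraries where 3 reads correspond to 0.110 to 1.49 CPM. Lox was 0 in 3 of 4 stimulated Y665H libraries, and so was Fgf1, 3 libraries of 2017012 to 5327354 reads.

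The list genes that STAT5 raises differed in these cells between Y665F and Y665H. With IL-2 and IL-7, 5 of 7 were called higher in Y665F than in Y665H, among them Il2ra (195 ± 42.0 against 47.7 ± 22.2 CPM, SD, n = 4, adjusted p = 0.000551, edgeR). Of the 8 genes known to fall with STAT5, 1, Il6ra, was called lower, and Bcl6 was 8.27 ± 7.17 against 7.58 ± 1.82 CPM. Against stimulated WT cells, 0 of the 7 were called by edgeR in Y665F (median log2 fold change 0.40) or in Y665H (median -1.14). Gm14085, in contrast, was called in Y665F against WT.

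In whole spleens 0 of the 5 genes passed the fold minimum in any comparison (edgeR and DESeq2; backgrounds 1.20% for Y665F against WT, 4.37% for Y665H against WT and 5.28% for Y665F against Y665H, of 19418 genes). Cybb was 398 to 455 CPM in WT, 368 to 409 CPM in Y665H and 319.6 to 374 CPM in Y665F spleens. Lox was 9.82 to 15.9, 8.16 to 12.8 and 8.35 to 11.3 CPM, and Fgf1 26.2 to 29.2, 20.1 to 27.2 and 23.1 to 28.2 CPM. Cldn10 was 1.17 to 2.29 CPM over the 16 spleens. Spleen holds many macrophages, and Csf1r was 294 to 512 CPM there.

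Smaller differences passed the adjusted p alone. Comparing Y665F with WT spleens, Cybb had a log2 fold change of -0.28 ± 0.06 (SE, edgeR adjusted p = 0.00419, 12.2% of genes at any fold), with every Y665F spleen below every WT spleen. The macrophage and monocyte sum was 2000 to 2370 CPM in Y665F and 2280 to 2700 CPM in WT, with 0 of 10 genes called (median log2 fold change -0.18). Of 7 neutrophil genes, 5 were called higher in Y665F than in WT (median 1.66). The part of these cells in the fall of Cybb was not tested. Cybb was also lower in Y665F than in Y665H (-0.18 ± 0.05, edgeR adjusted p = 0.0191, 25.8% of genes at any fold). It no longer passed without Y665F replicate 1 (adjusted p = 0.0757) or 4 (adjusted p = 0.0947). The same held without Y665H replicate 2 (adjusted p = 0.0519), 3 (adjusted p = 0.0864), 4 (adjusted p = 0.115) or 5 (adjusted p = 0.0685). Gm14085 was lower in Y665H than in WT spleens, at 21.4 to 30.2 against 33.8 to 41.0 CPM (-0.55 ± 0.11, adjusted p = 0.00338, 19.8% of genes at any fold), and higher in Y665F than in Y665H (30.4 to 41.9 CPM, 0.51 ± 0.10, adjusted p = 0.0013). Leaving out each spleen in turn, that of Y665H replicate 1 included, gave -0.60 to -0.47 for the first (adjusted p at most 0.0207). Without WT replicate 3, Lox passed in Y665F against WT (-0.42, adjusted p = 0.0497), and without Y665H replicate 4, Fgf1 passed in Y665H against WT (-0.30, adjusted p = 0.0285).

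The T cell sum was also lower in Y665H than in Y665F spleens, at 362 to 544 CPM in Y665H, 534 to 624 in WT and 649 to 894 in Y665F spleens. Other cells differed too. In Y665H against WT 7 of 7 neutrophil genes were called higher (median log2 fold change 1.96), and the neutrophil sum was 120 to 1540 CPM in Y665H, 194 to 316 in WT and 389 to 951 in Y665F. Of 5 erythroid genes tested, 3 were called higher in Y665H than in WT (median 1.87) and 4 lower in Y665F than in Y665H. The erythroid sum was 1720 to 2400 CPM in Y665H replicates 2 to 5 and 323 CPM in replicate 1, against 504 to 960 in WT and 217 to 703 in Y665F. The part of these cells in the difference was not tested. Slc28a2 also differed in the same direction, by -0.39 ± 0.11 in Y665H against WT (edgeR adjusted p = 0.0157), and the share of Gm14085 in the pair stayed between 15.2% and 17.8% in the 16 spleens. Gm14085 thus was lower with Y665F than with Y665H in null CD4+ and splenic T cells and higher in spleens, values from separate fits whose difference was not tested.

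**Figure D5:**
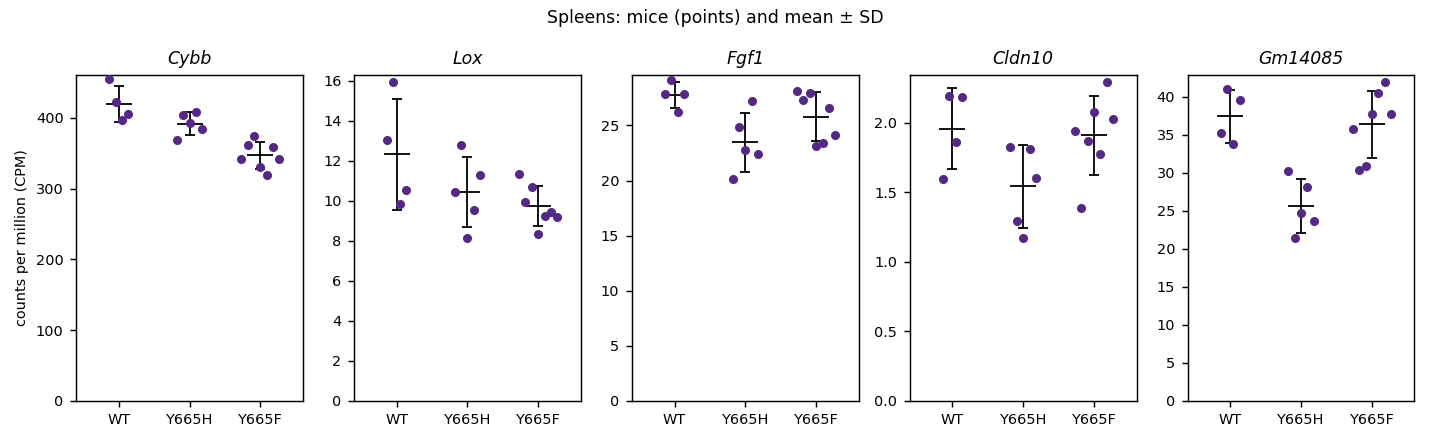
Levels of the 5 genes in CPM (vertical axes, from 0) in WT, Y665H and Y665F spleens. Points are mice and bars the mean ± SD (4, 5 and 7 mice); Cybb in Y665F (319.6 to 374 CPM) lies below WT (398 to 455 CPM), and Gm14085 in Y665H (21.4 to 30.2 CPM) below WT (33.8 to 41.0 CPM).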

How the data were processed

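RNA was sequenced from 30 CD4+ T cell, 15 splenic T cell and 16 spleen libraries with a stranded total RNA kit. Per the labels and the submitters' processing notes, the authors trimmed reads with Trimmomatic 0.36, aligned them to mm10 with STAR and counted them per gene with HTSeq 0.9.1, and the deposited values are raw counts. The strand setting of the counting is not given in the sources used here, so overlapping antisense genes may share reads. Reads without a gene (28.4 to 36.9% in CD4+, 63.9 to 85.7% in splenic T and 62.8 to 69.4% in spleen libraries) were left out. No 2 libraries of a group agreed within sampling noise (88 pairs, lowest chi-square per gene 3.23).

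Genes with at least 10 reads over a fit were tested with edgeR 4.0.16 (TMM, quasi-likelihood test, Benjamini-Hochberg adjustment over all genes; R 4.3.3), and a call needed a log2 fold change of more than 1 and an adjusted p below 0.05. One fit each was made for null CD4+ cells, WT CD4+ cells, both together, splenic T cells and spleens. The 95% intervals use the residual degrees of freedom and are wider than the tests. DESeq2 1.42.0, other filters, size factors, a replicate block, separate fits and leaving out each library were alternatives, and the scripts were tested on simulated data. The 5 genes and the gene lists were chosen with earlier results of these data known. The named genes are the 5, the next-ranked falls, the 3 genes closest to each by Pearson r of log2 CPM (prior count 2), and list genes that were called or are close relatives. Same-numbered CD4+ libraries deviated together within each background (30 of 30 pairs above 0.1 in null and in WT cells, median r 0.466 and 0.635), so the numbers pair them there. Over both backgrounds together 94 of 135 same-numbered pairs were above 0.1 (median r 0.275), so a pairing of null with WT libraries was not shown. Counting limits cover counting error only.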

Additional observations from a re-analysis of the deposited data

Results flagged for a closer look

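Among the 30 sets of 4 to 7 libraries (1 gene in 1 group) tested for a library far from the rest, 5 held one, where chance gives about 1 in 20. That rate does not hold for a set with reads in 1 library only. All 5 flagged values were in splenic T cells and rested on few reads. Lox was 0 CPM in stimulated WT replicate 1 and 0.487 CPM in stimulated Y665H replicate 3, the 1 library of its group with any read. Fgf1 was 0.348 CPM in stimulated Y665H replicate 3, again the 1 library with a read, and 2.44 CPM in stimulated Y665F replicate 3, from 8 reads. Cldn10 was 0.918 CPM in stimulated WT replicate 4.

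Gm14085 differed in direction between materials. Y665F against Y665H was -2.66 on the log2 scale in null CD4+ cells and -2.13 in stimulated splenic T cells, where every Y665F library lay below every Y665H library, and 0.51 in spleens, where every Y665F spleen lay above every Y665H spleen. The difference was not tested.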

How the results depend on the processing

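Under the settings that left every library in, 467 values with a test kept their direction and stayed called or not called. Of the others 6 gained and 1 lost a call, and 1 turned. A call here needs the fold minimum too, so a value that crossed the adjusted p alone counts as kept. Without the 3 splenic T libraries of 2017012 to 3310342 reads, a setting chosen after seeing the data, Lox (-0.11) and Fgf1 (-0.029) turned in Y665F against WT. Cybb (-0.028) turned in IL-2 and IL-7 against none. In that setting 2 values gained a call and 15 kept their direction and stayed called or not called. It gave 1 gene called in Y665H against WT and 2 in Y665F against Y665H. DESeq2 called 2 genes in IL-2 and IL-7 against none. Without the fold minimum, 1, 1 and 2 genes passed in spleens for Y665F against WT, Y665H against WT and Y665F against Y665H. For null against WT with Y665F, DESeq2 called 4 genes and the groups compared alone 1. The cause was not tested. Shares of all genes called are given only for the main edgeR fits, so the counts of this section stand without a background.

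With the replicate block, 4 genes were called in null against WT with Y665F, Lox with N642H in WT cells turned to 0.23, and the adjusted p of Cybb in spleens rose to 0.0838 (Y665F against WT) and 0.102 (Y665F against Y665H). The block changed no call within null or within WT cells.

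Leaving out 1 library gave 3 to 5 genes called in Y665F against Y665H in null cells, 0 to 4 in null against WT with Y665F, 0 to 1 in Y665H against WT, 1 to 2 in Y665F against Y665H and 0 to 1 in IL-2 and IL-7 against none in splenic T cells. The described change of Lox with N642H reached -4.45 without null N642H replicate 1, and that of Cybb between null and WT empty vector 5.45 without WT empty-vector replicate 3. In WT cells the ranges crossed 0 for STAT5B in Cybb (-0.62 to 1.13), Fgf1 (-0.68 to 0.27) and Gm14085 (-1.15 to 0.22), for N642H in Cybb (-1.27 to 0.17), Lox (-1.63 to 0.53) and Fgf1 (-0.98 to 0.041), for Y665F in Lox (-2.06 to 0.21) and for Y665H in Cybb (-0.99 to 0.67), Fgf1 (-1.56 to 0.15), Cldn10 (-0.32 to 0.23) and Gm14085 (-0.73 to 0.61). They did so for Y665F against Y665H in Lox (-0.77 to 4.23) and Fgf1 (-2.54 to 0.35), and for the difference between backgrounds in Fgf1 (-2.11 to 0.85) and Gm14085 (-2.32 to 0.046). In splenic T cells they did so for Y665F against WT in Lox (-0.14 to 0.67) and Fgf1 (-0.056 to 1.56) and for IL-2 and IL-7 against none in Cybb (-0.054 to 0.39), and in spleens for Y665F against WT in Cldn10 (-0.11 to 0.040) and Gm14085 (-0.075 to 0.017). Lox, Fgf1 and Cybb had at most 24 reads in a WT CD4+ library, so depth limits these values.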
